A study of Mus musculus with 4 samples.

Results

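The 10 genes described here encode the subunits of the transcription factor NF-kB (Nfkb1, Nfkb2, Rel, Rela and Relb) and proteins that bind or restrain it (Nfkbia, Nfkbie, Nfkbiz, Tnfaip3 and Bcl3). They were chosen by name, and 9 of the 10 were measured, among 22180 genes named in all. Nfkb1 was not analysed here. All 9 passed the filter on dim signals that left 16635 genes for testing, and each had 1 row. Expression had been measured on whole-transcript arrays in Thy1+ LSK cells of mouse bone marrow, a sorted fraction in which blood stem cells are enriched (LSK stands for lineage-negative, Sca-1-positive and Kit-positive). There were 2 arrays in each of 2 groups. Controls had intact Nol3 (Nol3+/+). The other group lacked Nol3 and was labelled MPN (Nol3-/- MPN), an abbreviation read as myeloproliferative neoplasm. Both groups were uncultured and untreated cells of C57BL/6 mice between 11 and 18 months old. The series title can be read as giving the disease to both genotypes, and the labels of the samples, in which Nol3-/- alone carries it, were followed. Nothing in the labels says whether an array held RNA of 1 mouse or of several, how the Nol3 allele was made, or that the arrays of a group came from separate animals. The p-values therefore measure the spread between these arrays, which may be technical. Of the 4 arrays, Nol3+/+ replicate 1 stood apart, correlating with the others at r = 0.899 to 0.911 across genes, where the remaining pairs reached 0.929 to 0.949. Sex-linked signal divided the arrays as genotype did, with Xist at 5.43 and 5.28 in Nol3+/+ against 10.9 and 10.7 in Nol3-/- MPN (log2 signal) and the Y-linked gene Gm20815 at 8.52 and 8.87 against 4.29 and 4.14, so genotype, disease label and sex-linked signal cannot be told apart.

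NF-kB acts as a dimer of Rel-family proteins. In resting cells the dimers are held in the cytoplasm by inhibitors of the IkB family, and signals from receptors for TNF, interleukin-1 or microbial products activate a kinase complex that marks the inhibitors for destruction. Dimers of Rela or Rel with the processed Nfkb1 product serve this canonical route, whereas Relb with the processed Nfkb2 product serves a slower one driven by a subset of TNF-family receptors. Several genes that NF-kB switches on encode its own inhibitors, which closes a feedback loop. In blood stem and progenitor cells the pathway is known for its part in inflammatory signalling, survival and myeloid output.

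NF-kB dimers bind DNA at kappaB sites. The promoter stretches below are shown because they hold matches to the consensus of such sites. Their genes encode the factor and proteins that bind or restrain it. RefSeq promoter windows (GRCm38.p6, from 250 bases before to 50 bases after an annotated transcript start) were found for 7 of the 10 genes. Each was searched on both strands for the kappaB consensus of 10 bases, a run of G followed by a purine, free central bases, pyrimidines and a closing run of C, with overlapping matches counted separately. A match was found for 6 of the 7 genes (85.7%), against 9.55% of 27025 genes with a window. By window, 8 of 10 windows of these genes (80%) held a match, against 8.46% of all 32851 windows. Windows 2 and 3 of Nfkb2 overlap and share 1 match, so the windows are not separate units. Capitals mark the matches. Nfkbia, which encodes the inhibitor IkB-alpha, is given with the whole 250 bases before its start, chr12:55492648-55492897 on the minus strand, and its match lay between 29 and 20 bases before the start.
Nfkbia: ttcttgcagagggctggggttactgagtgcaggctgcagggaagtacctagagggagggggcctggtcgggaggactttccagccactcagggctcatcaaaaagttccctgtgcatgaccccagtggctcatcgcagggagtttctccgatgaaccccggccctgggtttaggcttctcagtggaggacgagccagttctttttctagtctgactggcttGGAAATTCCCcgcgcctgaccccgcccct

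The other genes are shown by the bases around their matches, each written 5′ to 3′ along the gene's own strand. For Nfkb2 the stretch is chr19:46304678-46304755 (plus strand), from the most upstream of the 3 windows RefSeq gives for it, and it holds a pair of overlapping matches and 1 further match.
Nfkb2: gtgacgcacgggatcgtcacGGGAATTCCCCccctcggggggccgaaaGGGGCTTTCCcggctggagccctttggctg
The Rel stretch, chr11:23771031-23771081 (minus strand), holds a pair of overlapping matches that begin 92 bases before the start.
Rel: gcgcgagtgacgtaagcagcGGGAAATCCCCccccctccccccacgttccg
The Nfkbie stretch is chr17:45555574-45555623 (plus strand).
Nfkbie: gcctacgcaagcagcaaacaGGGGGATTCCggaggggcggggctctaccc
Tnfaip3 has a distal stretch, chr10:19015506-19015555, and one next to the start, chr10:19015393-19015442 (both minus strand).
Tnfaip3 distal: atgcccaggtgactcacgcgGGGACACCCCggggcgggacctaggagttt
Tnfaip3 proximal: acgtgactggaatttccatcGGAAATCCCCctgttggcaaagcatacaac
In Bcl3, chr7:19822736-19822773 (minus strand), the match lies between 3 and 12 bases after the start.
Bcl3: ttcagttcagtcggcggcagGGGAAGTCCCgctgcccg
The window of Rela held no match, which says only that these letters are not in that window. The searches describe sequence and do not show binding, and the arrays measured no promoter activity. Other genes of the pathway with a window held a match in 14 of 29 cases for a list of known NF-kB targets, 5 of 16 for other inhibitors, 4 of 23 for kinase complex and ubiquitin ligase genes, 2 of 12 for receptor adaptors, 3 of 18 for receptors and 1 of 10 for ligands.

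**Figure D1:**
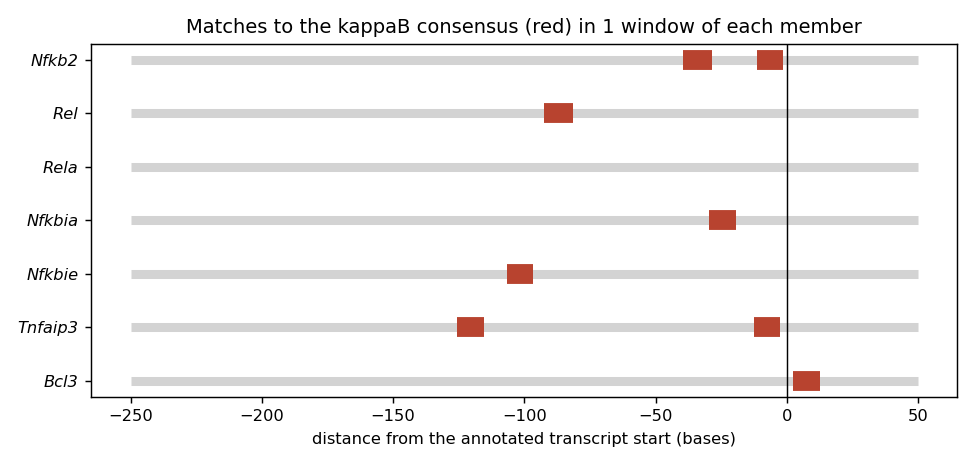
Position of matches to the kappaB consensus in 1 RefSeq promoter window of each of 7 genes. The x axis is the distance in bases from the annotated transcript start (vertical line), grey bars are the windows searched and red blocks are matches, with overlapping matches joined. The matches of Nfkb2, Rel, Nfkbia, Nfkbie and Tnfaip3 lie before the start, that of Bcl3 just after it, and Rela has none.

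The expression comparison asks whether the parts of this pathway differed in the stem cell-enriched fraction of Nol3-/- MPN mice. None of the 9 measured genes passed the threshold. By limma with Benjamini-Hochberg adjustment over all genes tested, their adjusted p-values lay between 0.841 and 0.974, against 4 of 16635 genes (0.024%) called at 0.05. With X- and Y-linked genes left out, 0 genes were called. None of the 9 had an unadjusted limma p under 0.05 either, and the smallest was 0.119 for Rela. That level was reached by 5.8% of all genes (3.73% with higher and 2.07% with lower signal). The log2 differences, given throughout as Nol3-/- MPN minus Nol3+/+, ran from -0.27 for Nfkb2 to 0.41 for Rela, with 4 genes above 0 and 5 below, where 51.7% of all genes lay above 0. Their median was -0.07, beside a median of 0.01 over all genes tested, and it turned to 0.11 without Nol3+/+ replicate 1 and, separately, without Nol3-/- MPN replicate 1. The 95% interval of every one of the 9 genes contained 0 and lay within 1 log2 unit of it, that is, between a halving and a doubling of signal, as did the intervals of 83.1% of all genes. Among the 9 genes, 5 had arrays that did not overlap between the groups, 3 higher and 2 lower in Nol3-/- MPN, against 35.5% of all genes (19.7% higher and 15.9% lower). In bulk samples like these, fewer cells of a type and less RNA per cell cannot be told apart.

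**Figure D2:**
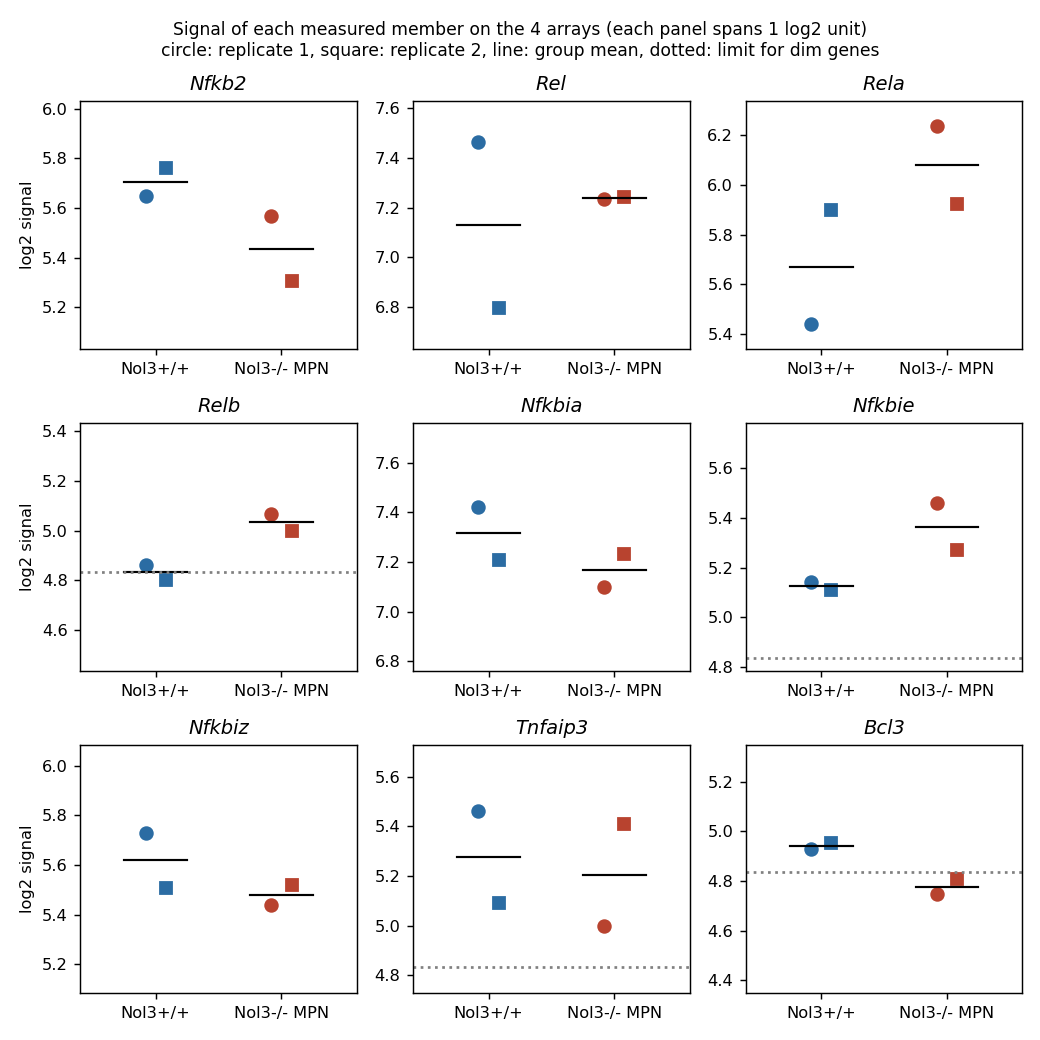
Log2 signal of the 9 measured genes on each of the 4 arrays, in panels that each span 1 log2 unit. Blue points are Nol3+/+ and red points Nol3-/- MPN, circles replicate 1 and squares replicate 2, lines are group means (n = 2), and the dotted line is the limit for dim genes at 4.835. Both red points lie above both blue points for Rela, Relb and Nfkbie and below them for Nfkb2 and Bcl3, and in the other 4 panels the groups overlap.

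Neither measured subunit of the canonical route passed the threshold, and both varied widely between the control arrays. Rela, the subunit with the main activating role in most cells, read 5.44 and 5.90 in the control arrays, against 6.24 and 5.92 in Nol3-/- MPN. The groups did not overlap, but the lower Nol3-/- MPN array lay just above the higher Nol3+/+ array, and the gap between the 2 Nol3+/+ arrays (0.46) was wider than the difference of means. That difference was 0.41 (SE 0.22, interval from -0.15 to 0.98, limma adjusted p = 0.841), a 1.33-fold higher signal with an interval from 0.90 to 1.97. It was the largest of the 9 in size and stood at percentile 86.8 of all tested genes by size of difference. Rel, which encodes c-Rel, an activating subunit prominent in blood cells, read 7.46 and 6.80 in Nol3+/+, against 7.24 and 7.24 in Nol3-/- MPN. Both Nol3-/- MPN arrays fell between the Nol3+/+ arrays, which were 0.67 apart, the widest gap of the 9 genes within a group. The difference of 0.11 (SE 0.29, interval from -0.62 to 0.84, limma adjusted p = 0.973) was the least precise of the 9, and it turned to -0.22 without Nol3+/+ replicate 2.

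The subunits of the slower route lay on opposite sides of 0. Nfkb2, whose precursor is cut to yield the partner of Relb, read 5.65 and 5.76 in Nol3+/+, against 5.57 and 5.30 in Nol3-/- MPN. The groups did not overlap, and the difference was -0.27 (SE 0.15, interval from -0.66 to 0.12, limma adjusted p = 0.849). Relb read 4.86 and 4.80 in Nol3+/+, against 5.07 and 4.999 in Nol3-/- MPN. Its groups did not overlap either, and its difference of 0.20 (SE 0.12, interval from -0.10 to 0.51, limma adjusted p = 0.857) was larger than the gaps of 0.06 and 0.07 within the groups. The Relb signals sat close to the limit for dim genes, 4.835, and 1 of the Nol3+/+ arrays was under it, so a change in a signal this low cannot be separated from a change in background. Over the 4 measured subunits the median difference was 0.16, with 3 above 0 and 1 below, and it turned to -0.02 without Nol3+/+ replicate 2.

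The IkB-family genes and Tnfaip3 had 4 differences below 0 and 1 above, with a median of -0.14. Nfkbia, the archetypal feedback inhibitor whose promoter is printed above, read 7.42 and 7.21 in Nol3+/+, against 7.10 and 7.23 in Nol3-/- MPN. The groups overlapped, and the difference was -0.15 (SE 0.22, interval from -0.70 to 0.40, limma adjusted p = 0.944). Nfkbie, which encodes IkB-epsilon, a slower feedback inhibitor, was the exception in sign. It read 5.14 and 5.11 in Nol3+/+, against 5.46 and 5.27 in Nol3-/- MPN, without overlap, and the difference was 0.24 (SE 0.13, interval from -0.10 to 0.58, limma adjusted p = 0.843). This difference was larger than the gaps within the groups (0.03 and 0.19), and neither gene passed the test.

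Nfkbiz and Bcl3 encode atypical, nuclear IkB proteins that modulate the target choice of DNA-bound NF-kB dimers. Nfkbiz read 5.73 and 5.51 in Nol3+/+, against 5.44 and 5.52 in Nol3-/- MPN. The groups overlapped. Its difference was -0.14 (SE 0.14, interval from -0.51 to 0.23, limma adjusted p = 0.918). Bcl3 read 4.93 and 4.95 in Nol3+/+, against 4.75 and 4.81 in Nol3-/- MPN. The groups did not overlap and the arrays within them were close, but both Nol3-/- MPN signals lay under the limit for dim genes. The difference was -0.16 (SE 0.12, interval from -0.47 to 0.14, limma adjusted p = 0.869). Tnfaip3, a ubiquitin-editing enzyme that shuts off signalling upstream of the kinase complex, read 5.46 and 5.09 in Nol3+/+, against 4.998 and 5.41 in Nol3-/- MPN. Each group spanned nearly the same range, and the difference was -0.07 (SE 0.21, interval from -0.60 to 0.46, limma adjusted p = 0.974). It turned to 0.11 without Nol3+/+ replicate 1 and to 0.13 without Nol3-/- MPN replicate 1.

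**Figure D3:**
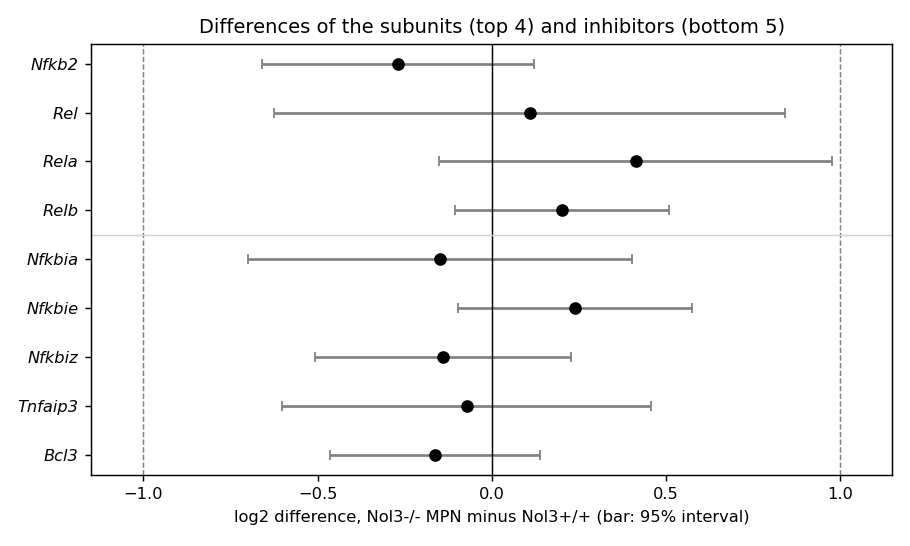
Log2 difference of each measured gene, Nol3-/- MPN minus Nol3+/+ (points), with limma's 95% interval (bars). Subunits lie above the grey line, and the IkB-family genes and Tnfaip3 (titled inhibitors) lie below it. Dashed lines mark 1 log2 unit either way. Every bar crosses 0 and none reaches a dashed line, although the upper bound of Rela, 0.98, comes close.

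The size of each difference was set against the gap between the arrays of a group. For Nfkb2, Relb, Nfkbie and Bcl3 the difference of means was larger than the gap within either group, as it was for 23% of all genes tested. For Nfkb2 it did so narrowly, with a difference of 0.27 in size and a gap of 0.26 between the Nol3-/- MPN arrays. For Rel, Rela, Nfkbia, Nfkbiz and Tnfaip3 at least 1 gap was as wide or wider. The median gap of the 9 genes was 0.21 between the Nol3+/+ arrays and 0.13 between the Nol3-/- MPN arrays, beside 0.21 and 0.18 over all genes tested.

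Without Nol3+/+ replicate 1, the array that stood apart, the difference was 0.18 for Rela, -0.32 for Nfkb2, 0.23 for Relb, 0.44 for Rel, -0.04 for Nfkbia, -0.03 for Nfkbiz, 0.26 for Nfkbie and -0.17 for Bcl3. The values for Rela, Nfkbia and Nfkbiz were thus closer to 0 without that array, and that for Rel farther from it. Those for Nfkb2, Relb, Nfkbie and Bcl3 were also farther from 0, by less than for Rel, and Tnfaip3 turned to 0.11. Leaving out each array in turn gave a range of 0.18 to 0.64 for Rela, 0.17 to 0.24 for Relb, 0.15 to 0.33 for Nfkbie, -0.19 to -0.13 for Bcl3 and -0.40 to -0.14 for Nfkb2. Relb and Bcl3, the members with signals nearest the limit for dim genes, had the narrowest ranges. The only member to reach an unadjusted p under 0.05 in any of these fits was Rela, at 0.0355 without Nol3+/+ replicate 2 (limma adjusted p = 0.410), a fit in which 11.4% of all genes did so.

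**Figure D4:**
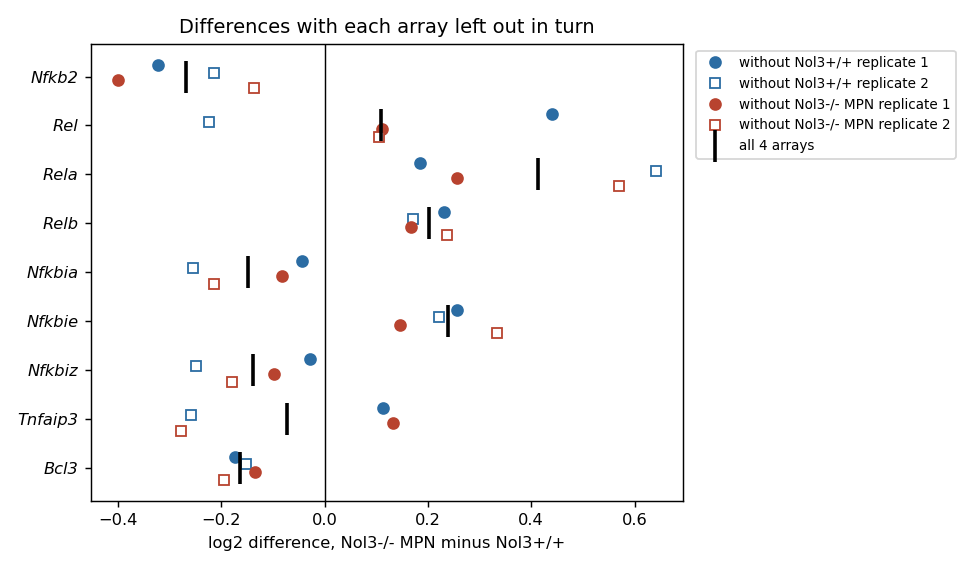
Log2 difference, Nol3-/- MPN minus Nol3+/+, of each measured gene with 1 array left out (blue: a Nol3+/+ array, red: a Nol3-/- MPN array, filled circle: replicate 1, open square: replicate 2) and with all 4 arrays (black bar). Rel and Tnfaip3 have points on both sides of 0, and the other 7 genes keep their sign in these 4 fits. For Nfkb2, Rela, Relb, Nfkbie and Bcl3, whose groups do not overlap, leaving out 1 array cannot turn the sign.

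The rest of the pathway was described from lists of genes by role, and 0 of 114 tested genes in them passed the adjusted threshold. An unadjusted p under 0.05 was reached by 5 of the 114, with 3 higher and 2 lower in Nol3-/- MPN, against 5.8% of all genes. Among ligands, 4 of 7 tested genes were above 0 and 3 below, with a median of 0.01. Il18, a cytokine of the interleukin-1 family, read 6.67 and 6.59 in Nol3+/+, against 5.30 and 5.85 in Nol3-/- MPN, a difference of -1.06 (SE 0.23, limma adjusted p = 0.841). Tnf, the cytokine that classically drives the canonical route, read 6.14 and 6.51 against 5.93 and 5.79, a difference of -0.46 (SE 0.20), with a range of -0.65 to -0.28 when 1 array was left out. Tnfsf13b, which encodes BAFF, a ligand of the slower route, differed by 0.27, which was 0.09 without Nol3+/+ replicate 1 and 0.45 without Nol3+/+ replicate 2. The groups did not overlap for any of these 3 genes, which were named because their p-values were the smallest of the list. Absence of overlap held for 5 of the 7 ligands (71.4%), 3 higher and 2 lower. Over all genes it held for 35.5% (19.7% higher and 15.9% lower). Of the 3 named ligands, only Il18 had an interval that left out 0.

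Among receptors, 10 of 20 tested genes were above 0 and 10 below, with a median of 0.02. Tlr6, a partner of Tlr2 in sensing bacterial lipopeptides, read 4.69 and 4.89 in Nol3+/+, against 5.46 and 5.40 in Nol3-/- MPN, a difference of 0.63 (SE 0.13, limma adjusted p = 0.841), with 1 Nol3+/+ array under the limit for dim genes. Il1r1, the signalling receptor for interleukin-1, read 7.32 and 7.56 against 8.04 and 7.86, a difference of 0.51 (SE 0.23). Il18rap, the accessory chain of the interleukin-18 receptor, differed by 0.31. In each of the 3 both Nol3-/- MPN arrays lay above both Nol3+/+ arrays. That held for 6 of the 20 receptors, with 1 lower, a total of 35% without overlap beside 35.5% of all genes (19.7% higher and 15.9% lower).

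Between receptor and subunit, the differences were small. Receptor adaptors had 8 of 12 tested genes above 0 and a median of 0.06. Ticam1, the adaptor of Tlr3 and Tlr4, differed by 0.28, Tradd, an adaptor of TNF receptors, by 0.18, and Bcl10, an adaptor of antigen receptors, by 0.16. Their order was not stable, since leaving out each array in turn gave 0.11 to 0.45 for Ticam1, 0.07 to 0.30 for Tradd and 0.06 to 0.26 for Bcl10. Genes of the kinase complex and its ubiquitin ligases had 13 of 23 above 0, a median of 0.05, and differences from -0.33 to 0.30. Traf6, the ubiquitin ligase of interleukin-1 and Toll-like receptor signalling, differed by 0.28, Tab2, an adaptor of the kinase TAK1, by 0.30, and Ikbke, a kinase related to the IkB kinases, by -0.33 (range -0.49 to -0.17 with 1 array left out). All 12 adaptors and 20 of the 23 kinase and ligase genes had an interval within 1 log2 unit of 0.

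Other inhibitors had 8 of 18 tested genes above 0 and a median of -0.01. Cyld, a deubiquitinase that counters the pathway, read 6.41 and 7.02 in Nol3+/+, against 7.42 and 7.02 in Nol3-/- MPN, a difference of 0.51 (SE 0.30, limma adjusted p = 0.853) with the nearest arrays of the groups almost level. It was 0.21 without Nol3+/+ replicate 1 and 0.82 without Nol3+/+ replicate 2. Zc3h12a, an RNase that degrades inflammatory transcripts, differed by -0.41 with overlapping groups, by -0.15 without Nol3+/+ replicate 1 and by -0.67 without Nol3+/+ replicate 2. Tnip3, a binding partner of the Tnfaip3 protein, differed by -0.57, which rested on Nol3+/+ replicate 2 (7.84, where the other 3 arrays read 6.65 to 6.71) and was 0.03 without it. Nfkbib, Nfkbid and Nfkbil1, the genes of this list with symbols that begin with Nfkbi, differed by -0.12, -0.04 and 0.17.

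Known NF-kB target genes had 12 of 34 tested members above 0 and 22 below, and a median of -0.11. An unadjusted p under 0.05 was reached by 3 of the 34, beside 5.8% of all genes. The arrays did not overlap for 16 (47.1%), 5 higher and 11 lower, beside 35.5% of all genes (19.7% higher and 15.9% lower). Ccl4, an inflammatory chemokine, read 7.60 and 7.43 in Nol3+/+, against 7.03 and 6.89 in Nol3-/- MPN, a difference of -0.55 (SE 0.21, limma adjusted p = 0.841). Clec4e, a C-type lectin receptor for fungal and mycobacterial glycolipids, read 4.56 and 4.77 against 5.004 and 5.49, a difference of 0.58 (SE 0.20, range 0.34 to 0.83 with 1 array left out) with both Nol3+/+ signals under the limit for dim genes. Fas, a death receptor, differed by 0.32. Of the 18 genes named from the pathway lists, 10 moved by over 1.5 times when 1 array was left out, and of these Tnip3 alone changed sign. Of the genes named from these lists, Tnfsf13b, Ticam1, Tradd and Fas also had 1 Nol3+/+ signal under that limit, and Traf6 had both. The 6 measured members with a kappaB match in a promoter window had 2 differences above 0 and 4 below, with a median of -0.11. The median was 0.00 over all 1454 tested genes with a match and 0.01 over 11447 with a window and none. The members' median rests on 6 genes, and its distance from the other medians was not tested. Rela (0.41) was the only measured member with a window and no match.

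**Figure D5:**
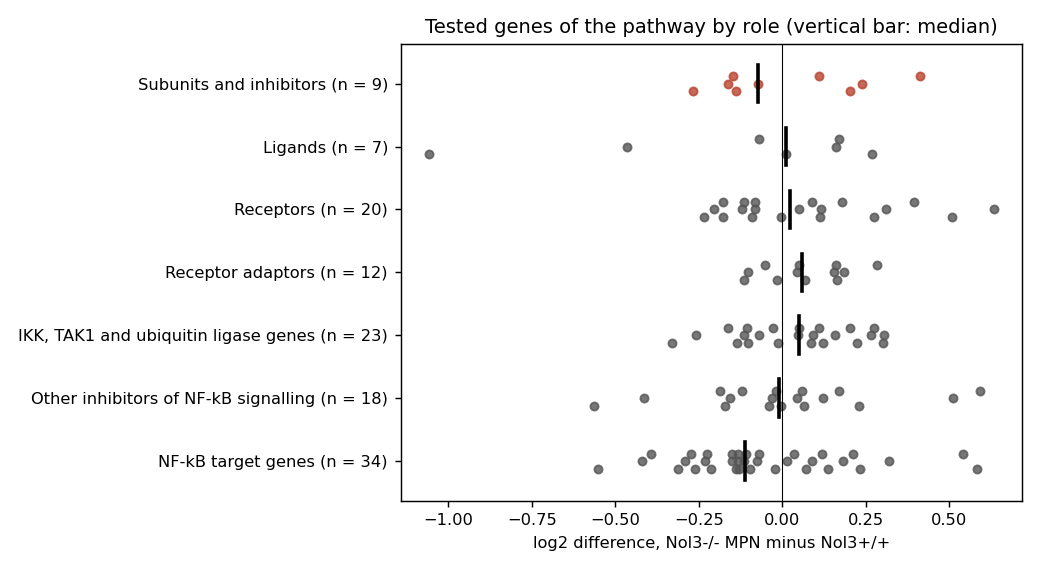
Log2 difference, Nol3-/- MPN minus Nol3+/+, of every tested gene of the pathway by role, with the 9 measured members in red and the other lists in grey. Each point is 1 gene, offset vertically for legibility, and black bars are medians. The medians lie between -0.11 and 0.06, and the points farthest from 0 are Il18 at -1.06 and Tlr6 at 0.63.

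The targeted gene, the sort genes, stem cell genes and markers of other cells were read on the same arrays. Nol3 differed by 0.02 (limma adjusted p = 0.995), and where the deletion lies relative to its probes is not given in the sources used here. Of the sort genes, Kit read 8.07 and 8.10 against 8.38 and 7.39, Thy1 4.74 and 5.02 against 4.64 and 5.24, close to the limit for dim genes, and Ly6a, which encodes Sca-1, was not analysed here. Haematopoietic stem cell genes had 5 of 12 tested genes above 0 and 7 below, with a median of -0.07 and values from -0.83 to 0.60. The groups did not overlap for 8 of the 12 (66.7%), 3 higher and 5 lower. Over all genes this held for 35.5% (19.7% higher and 15.9% lower). Among markers of other blood cells, 3 of 10 tested dendritic cell genes were above 0 and 7 below, with a median of -0.14. Their summed linear signal was 1124 and 989.2 in Nol3+/+, against 818.4 and 819.2 in Nol3-/- MPN. Most of that gap lay in Irf8 (-1.83), and without it the sums were 868.5 and 777.5 against 733.4 and 768.9. Of 13 tested monocyte and granulocyte genes, 6 were above 0 and 7 below, with a median of -0.03 and values from -0.86 for S100a8 to 0.48 for Mpo. Sums over all 16 genes of that list were 1598 and 2210 against 1555 and 1712, and without S100a9 (-0.83) they were 1111 and 1533 against 1214 and 1406. All 7 tested B cell genes were above 0, with values from 0.000165 to 0.50 and a median of 0.19. Sums over 9 were 386.5 and 371.8 against 407.6 and 448. Without Cd79b (0.50) they were 329 and 313.9 against 327.4 and 364.6, and the groups overlapped. Of 9 T and NK cell genes, 5 were above 0 and 4 below, with a median of 0.06. Their sums were 549.4 and 509.3 against 618.4 and 635.2, a gap that lay in Nkg7 (0.86), since without it they were 394.6 and 402.2 against 390.8 and 396.3. Erythroid and megakaryocyte genes had 3 of 7 tested genes above 0 and 4 below, with a median of -0.04. Lineage markers of the sort had 2 of 4 above 0 and 2 below, with a median of -0.01. No marker had an adjusted p under 0.05, detection calls were not used, and the part of these cells in the differences above was not tested.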

How the data were processed

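Per the labels' protocols, RNA of sorted cells was amplified by single-primer isothermal amplification and hybridised to whole-transcript Affymetrix arrays. The tools named in the submitters' processing notes are Affymetrix Expression Console and the Transcriptome Analysis Console. Version, background correction and normalization method were not given in the sources used here. Values deposited by the authors were normalized (41345 rows, 4 arrays, 2.84 to 13.5), taken as log2 signals from their range; base 2 is not stated. Detection calls were not used, so whether a low signal exceeds background is unknown, and precision is limited by the array number. Rows were named through GEO's platform annotation. A total of 23521 had 1 gene symbol, 1814 several and 16010 none. The row with the highest mean represented a gene, and genes under the 25th percentile of mean signal (4.835) were left out as dim.

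Tests across genes used R 4.3.3 and limma 3.58.1 (lmFit, then eBayes with trended variance, 2 residual and 3.19 prior degrees of freedom, Benjamini-Hochberg adjustment over 16635 genes, threshold 0.05). The fit was run on simulated data with known differences. There the variances were shuffled among genes and no array stood apart, so the trend and such an array were not covered. SE is limma's standard error and intervals are 95%. Lists are described by counts and medians, without a test. Named genes were all members, Nol3, Xist, the sort genes and the 3 tested genes with the smallest p of each pathway list. Gm20815, Nfkbib, Nfkbid, Nfkbil1, Irf8, S100a8, S100a9, Mpo, Cd79b and Nkg7 were added after their values were seen. So were the marker sums without 1 gene (the gene whose linear signal differed most). The members and lists were chosen with earlier results of these data known. Alternatives were a replicate block, leaving out each array, other variance models, array weights, other normalizations and filters, the mean of all rows of a gene, and sex-linked genes left out.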

Additional observations from a re-analysis of the deposited data

How the results depend on the processing

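No member was called under any of the 14 alternatives, and 7 of the 9 measured genes kept their sign in every alternative that tested them. Most of these alternatives could not turn a sign. Only leaving out an array and the other normalizations altered a member's log2 difference. For Nfkb2, Rela, Relb, Nfkbie and Bcl3, whose groups do not overlap, leaving out 1 array cannot turn the sign either. Of 16635 genes, 4 were called over all arrays, 0 with a replicate block and 0 without X- and Y-linked genes. Leaving out 1 array gave 0 to 39 calls. The numbers 1 and 2 are not known to pair the arrays, whose deviations from their group means correlated at 0.05. The replicate block called 0 members. It could not move their median of -0.07, because each group has 1 array of each number. That median moved with single arrays, between -0.21 and 0.11, and was -0.14 over the 5 members left by the filter at the 50th percentile. The subunits' median lay between -0.02 and 0.21 with an array left out, and that of the IkB-family genes and Tnfaip3 between -0.25 and -0.03. With an array left out the sign turned for Rel (range -0.22 to 0.44), Tnfaip3 (-0.28 to 0.13), Nol3 (-0.083 to 0.125), Kit (-0.69 to 0.29), Thy1 (-0.24 to 0.35) and Tnip3 (-1.16 to 0.031). The cause was not tested. All members' intervals stayed within 1 log2 unit of 0 over all arrays but not in every alternative: 6 to 8 of 9 did with an array left out, 8 with the block and 8 with median centring.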
